A study of Brassica napus with 33 samples.

Results

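The subject is 4 genes of the sulfate transporter (SULTR) family of Brassica napus, measured in roots by RNA sequencing. They are BnaA07g33860D (SULTR1.2), BnaA10g22050D and BnaC09g46440D (both SULTR2.1) and BnaC03g05940D (SULTR4.1), 4 of the 101040 genes in the count files. Their SULTR names are those of the study. By their identifiers they are assigned to chromosomes A07, A10, C09 and C03. They were chosen by their change in these same root libraries: in the study's table of deprivation-specific genes they stand as raised by S deprivation and by no other macronutrient deprivation. The levels under S deprivation and the 6 comparisons with the 10-day control are therefore given as a description, without a test. Other sulfate transporters met the same criterion, among them BnaC06g38480D, a further gene named SULTR1.2, which is used here only for comparison.

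The plants were wild-type rapeseed of 1 cultivar, Trezzor, grown in hydroponics and kept for 24 days on a complete nutrient solution. Roots were then sampled after 10 days without N, Mg, P, S, Ca or K, with a control on complete solution, and after 22 days without Cl, Co or Mn, with a control of the same date. Each of the 11 conditions had 3 libraries (n = 3 throughout), 33 in all, and each library was made from pooled plants. Errors are SD over these 3 libraries unless SE is written. The label "root" was not checked against marker genes, because the files hold identifiers that were not paired with gene names here.

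In Arabidopsis, SULTR1;2 is the main high-affinity transporter that takes up sulfate from the soil solution into root cells. SULTR2;1 is a low-affinity transporter of vascular tissue that serves the movement of sulfate between root and shoot. SULTR4;1 lies in the vacuolar membrane and releases stored sulfate into the cytosol. Genes of the family are widely known to be raised when sulfate is short. Brassica napus carries an A and a C genome, so that a gene of Arabidopsis usually has several copies.

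Levels are given in CPM, the read pairs assigned to a gene on the expected strand relative to the library total, after scaling of the totals by the trimmed mean of M-values (TMM) over all 33 libraries. CPM takes no account of gene length, so levels are compared between libraries and not between genes. The libraries held between 10115284 and 22841765 such gene counts, and 5.19 to 20.4% of read pairs were unmapped. In bulk roots, fewer cells expressing a gene and less RNA per cell cannot be told apart. Replicates 1 and 2 of the 22-day control differed much less than any other pair of replicates (chi-square per degree of freedom of 1.28 over genes, against 4.99 for the next lowest pair). They still differed by slightly more than counting error and were kept as 2 libraries. The 22-day log2 fold changes of the tested members are also given with both summed as 1, and other 22-day results are not.

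SULTR1.2 (BnaA07g33860D) was high under S deprivation and nearly absent under N deprivation. Under S deprivation it was at 114, 97.2 and 123 CPM, against 59.7, 25.2 and 50.3 CPM in the 10-day control. All 3 S-deprived libraries were above all controls, with S-deprived libraries averaging 112 ± 13.3 CPM and controls 45.1 ± 17.8 CPM and a log2 fold change of 1.27 (SE 0.38). Under N deprivation the gene was at 0.0860, 1.32 and 0.177 CPM, which are 1, 20 and 3 counts. The mean was 0.528 ± 0.688 CPM under N deprivation, and the log2 fold change against the 10-day control was -6.37 (SE 0.54). Replicate 2 held most of these counts, and without it the value was -8.27.

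The other 10-day conditions lay between these extremes for SULTR1.2. Mg deprivation gave 92.9, 54.1 and 75.6 CPM and K deprivation 38.5, 70.0 and 60.6 CPM, both overlapping the control. P deprivation gave 26.1, 19.8 and 15.5 CPM and Ca deprivation 18.0001, 23.2 and 29.3 CPM, and of these only single libraries exceeded the lowest control. The log2 fold changes against the 10-day control were 0.71 (SE 0.38) for Mg, 0.32 (SE 0.38) for K, -1.18 (SE 0.39) for P and -0.95 (SE 0.38) for Ca.

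The SULTR2.1 genes had few reads outside S deprivation. BnaA10g22050D had 84, 36 and 68 counts under S deprivation (5.14, 3.51 and 4.71 CPM), against 8, 3 and 0 counts in the 10-day control (0.622, 0.249 and 0 CPM). The groups did not overlap, with S-deprived libraries at 4.46 ± 0.847 CPM and controls at 0.290 ± 0.313 CPM and a log2 fold change of 3.89 (SE 0.60). The control value turns on single libraries, since the log2 fold change was 5.12 without control replicate 1 and 3.29 without control replicate 3. The gene had 0 to 6 counts in every library of the other 5 deprivations at 10 days.

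BnaC09g46440D, the second SULTR2.1 copy, had fewer counts still under S deprivation. It had 47, 7 and 31 counts under S deprivation (2.88, 0.682 and 2.15 CPM), against 3, 1 and 1 counts in the control. Every control library was at or under a floor of 3 counts. The mean CPM under S deprivation was 8.19-fold the mean CPM of 3 counts in the control libraries. This value makes no allowance for error in the S-deprived counts. The ratio of the summed counts was 16.1 (95% interval 6.64 to 50.9, counting error only). All 4 members were at their lowest S-deprived level in replicate 2.

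SULTR4.1 (BnaC03g05940D) differed less between conditions than SULTR1.2. It was at 88.7, 75.5 and 84.8 CPM under S deprivation, against 59.6, 37.3 and 49.5 CPM in the 10-day control. The groups did not overlap, with mean levels of 83.0 ± 6.76 CPM in S-deprived and 48.8 ± 11.2 CPM in control roots and a log2 fold change of 0.73 (SE 0.22), the smallest of the 4 members. N deprivation gave 12.04, 8.98 and 5.38 CPM and P deprivation 21.9, 18.7 and 12.8 CPM, all below every control. The log2 fold changes against the control were -2.51 (SE 0.24) for N and -1.49 (SE 0.23) for P.

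Mg deprivation left SULTR4.1 at 46.0, 39.5 and 41.8 CPM, within the range of the control. Ca deprivation gave 32.3, 33.7 and 37.5 CPM and K deprivation 32.7, 34.6 and 35.9 CPM. The K-deprived libraries were all below the control, and 1 Ca-deprived library was just above the lowest control. The log2 fold changes were -0.21 (SE 0.22) for Mg, -0.52 (SE 0.22) for Ca and -0.51 (SE 0.22) for K.

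**Figure D1:**
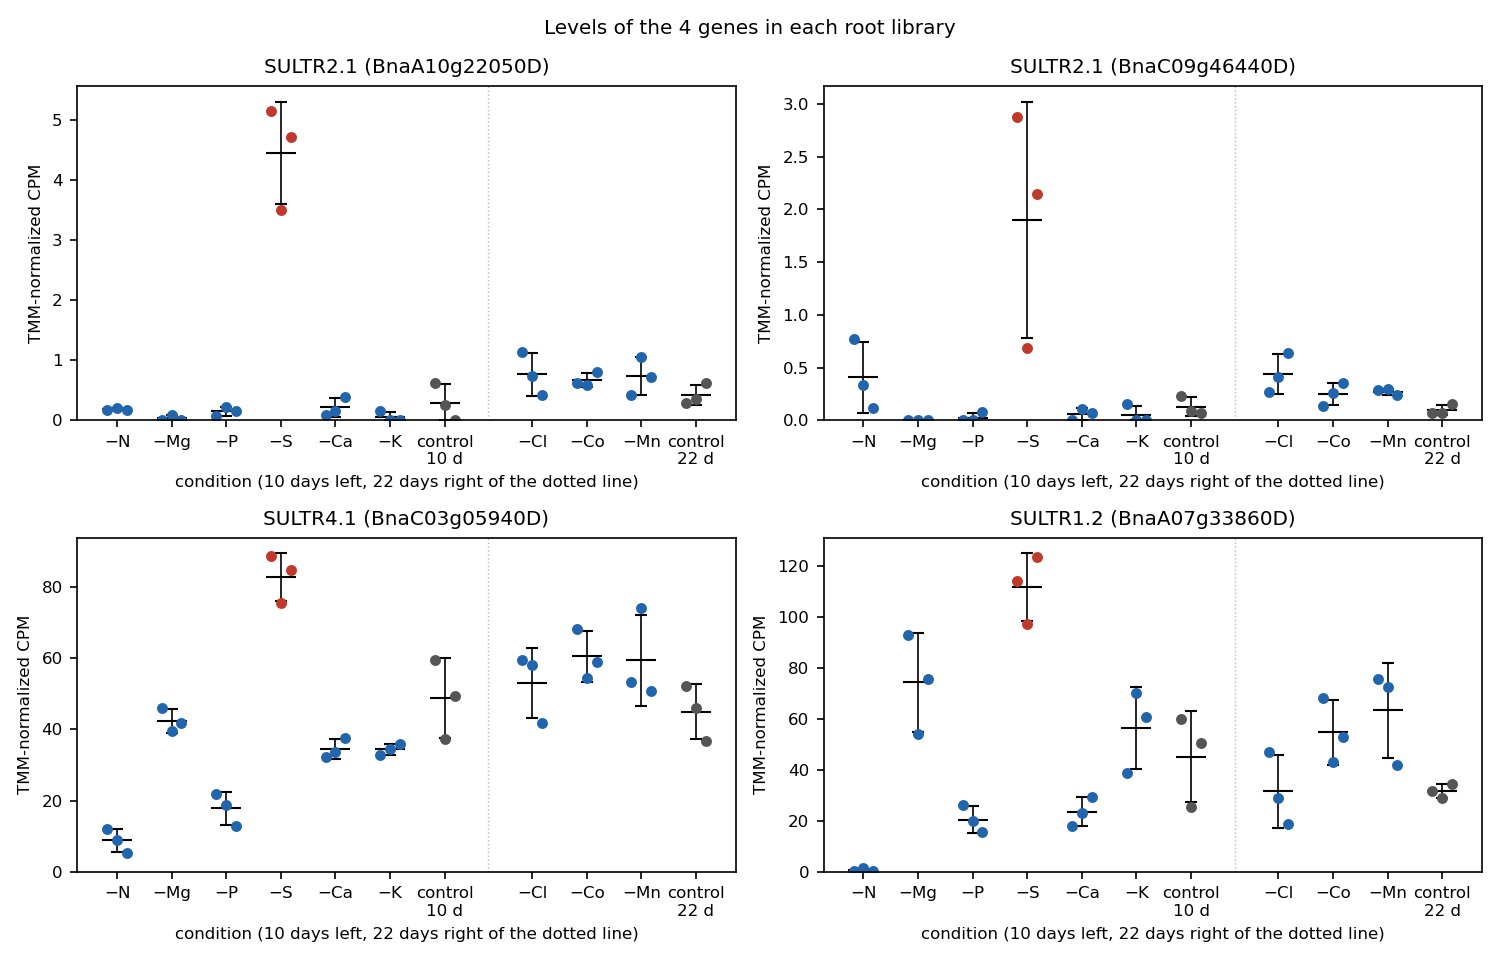
Levels of the 4 genes in each library (points, TMM-normalized CPM, linear axes that differ between panels) with the mean and SD of each condition (n = 3). Conditions at 10 days are left and conditions at 22 days right of the dotted line, and error bars end at 0. The S-deprived libraries (red) were the highest in 3 panels, whereas for BnaC09g46440D 1 N-deprived library (0.774 CPM) was above the lowest S-deprived one (0.682 CPM), and SULTR1.2 was at 0.528 ± 0.688 CPM under N deprivation.

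Ordered by mean level over the 11 conditions, S deprivation came first for all 4 genes and did not overlap the condition next in the order. The members were chosen as raised by S deprivation, so its place largely follows from the choice. The share of all genes with such separations between neighbours was not counted. For BnaC09g46440D, S deprivation did overlap N deprivation, which came later in the order and reached 0.774 CPM in replicate 1, against 0.682 CPM in S replicate 2. For SULTR1.2 the order went on with Mg, Mn, K and Co deprivation, the 10-day control, the 22-day control, and Cl, Ca, P and N deprivation. Only S and N deprivation, at the ends, were separated from their neighbour. For SULTR4.1 the order was S, Co, Mn and Cl deprivation, the 10-day control, the 22-day control, and Mg, Ca, K, P and N deprivation, and 4 of the 10 neighbouring pairs did not overlap. N and P deprivation were the lowest for both genes. For each SULTR2.1 copy only S deprivation was separated from its immediate neighbour, and the order of the other conditions lies within a few counts.

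Comparisons in which neither the S-deprived nor the control libraries enter the difference show how the members differ among the other deprivations. Those libraries still entered the filter on low counts, the normalization and the estimate of the spread. N, Mg, P and Ca deprivation were each set against K deprivation with the quasi-likelihood test of edgeR on all genes, and a gene was called where its p, adjusted by the Benjamini-Hochberg procedure, did not exceed 0.05. The 4 comparisons share the K-deprived libraries. The choice of members asked that none of these deprivations raised them above the control, so the direction is not fully independent of the choice. K deprivation was taken as reference because earlier results of these data found it closest to the control. The comparisons with it are therefore not independent of those with the control.

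N deprivation gave the largest difference. SULTR1.2 was at 0.528 ± 0.688 CPM under N deprivation and 56.4 ± 16.1 CPM under K deprivation, a log2 fold change of -6.69 (SE 0.54, edgeR adjusted p = 3.64e-07, lower in all 3 libraries). Without N replicate 2 the value was -8.59. SULTR4.1 fell to 8.80 ± 3.33 CPM under N deprivation, against 34.4 ± 1.62 CPM under K deprivation (log2 fold change -1.998, SE 0.23, edgeR adjusted p = 1.61e-05). Thus 2 of the 4 members were called, where 24.2% of all 56667 genes tested were called in either direction.

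For the SULTR2.1 copies a fall could not have been seen, since K deprivation left both at or under the floor. BnaC09g46440D had 9, 5 and 2 counts under N deprivation, against 2, 0 and 0 counts under K deprivation, so that 1 library of each group had the same count. The ratio of summed counts was 7.43 (95% interval 1.75 to 66.6, counting error only), and the difference was not called (edgeR adjusted p = 0.0798). Without K replicate 1 it was called (edgeR adjusted p = 0.0466). BnaC09g46440D was tested in the fit that holds the S-deprived libraries, by which it was chosen. It did not pass the filter in a fit of N and K deprivation alone, so no weight is laid on either p. BnaA10g22050D had 2, 3 and 3 counts under N deprivation and 2, 0 and 0 under K deprivation, all at or under the floor of 3 counts, and no fold is given.

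P deprivation lowered the same pair of genes. SULTR1.2 was at 20.5 ± 5.30 CPM under P deprivation and 56.4 ± 16.1 CPM under K deprivation (log2 fold change -1.50, SE 0.39, edgeR adjusted p = 0.00749). SULTR4.1 was at 17.8 ± 4.62 CPM under P deprivation and 34.4 ± 1.62 CPM under K deprivation (log2 fold change -0.98, SE 0.22, edgeR adjusted p = 0.00322). In both genes every P-deprived library was below every K-deprived one. The 2 of 4 members called stand beside 29.6% of all genes called for P deprivation.

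Under Ca deprivation 1 member was called, and the difference between members was not tested. SULTR1.2 fell to 23.5 ± 5.67 CPM under Ca deprivation, against 56.4 ± 16.1 CPM under K deprivation (log2 fold change -1.27, SE 0.38, edgeR adjusted p = 0.0195). This call was lost when Ca replicate 1, Ca replicate 2, K replicate 2 or K replicate 3 was left out (log2 fold change -1.11, -1.26, -1.09 and -1.20, adjusted p up to 0.0858). SULTR4.1 was at 34.5 ± 2.71 CPM under Ca deprivation and 34.4 ± 1.62 CPM under K deprivation (log2 fold change -0.01, SE 0.22, adjusted p = 0.984). Against the 10-day control, its log2 fold changes were -0.52 (SE 0.22) for Ca and -0.51 (SE 0.22) for K. Those of SULTR1.2 were -0.95 (SE 0.38) for Ca and 0.32 (SE 0.38) for K. BnaA10g22050D had 10 counts in all under Ca deprivation and 2 under K deprivation, a ratio of 4.44 (95% interval 0.947 to 41.7, counting error only), and it was not called (edgeR adjusted p = 0.205). It too was tested in the fit that holds the S-deprived libraries, and did not pass the filter in a fit of Ca and K deprivation alone. The call of 1 of 4 members compares with 26.8% of all genes.

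Mg deprivation called none of the 4 members, beside 13.5% of all genes. SULTR1.2 was at 74.2 ± 19.4 CPM under Mg deprivation and 56.4 ± 16.1 CPM under K deprivation (log2 fold change 0.39, SE 0.37, edgeR adjusted p = 0.508). SULTR4.1 was at 42.4 ± 3.28 CPM under Mg deprivation and 34.4 ± 1.62 CPM under K deprivation, and although the libraries did not overlap the difference was not called (log2 fold change 0.30, SE 0.22, adjusted p = 0.380). Both SULTR2.1 copies had at most 2 counts in any library of either condition.

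**Figure D2:**
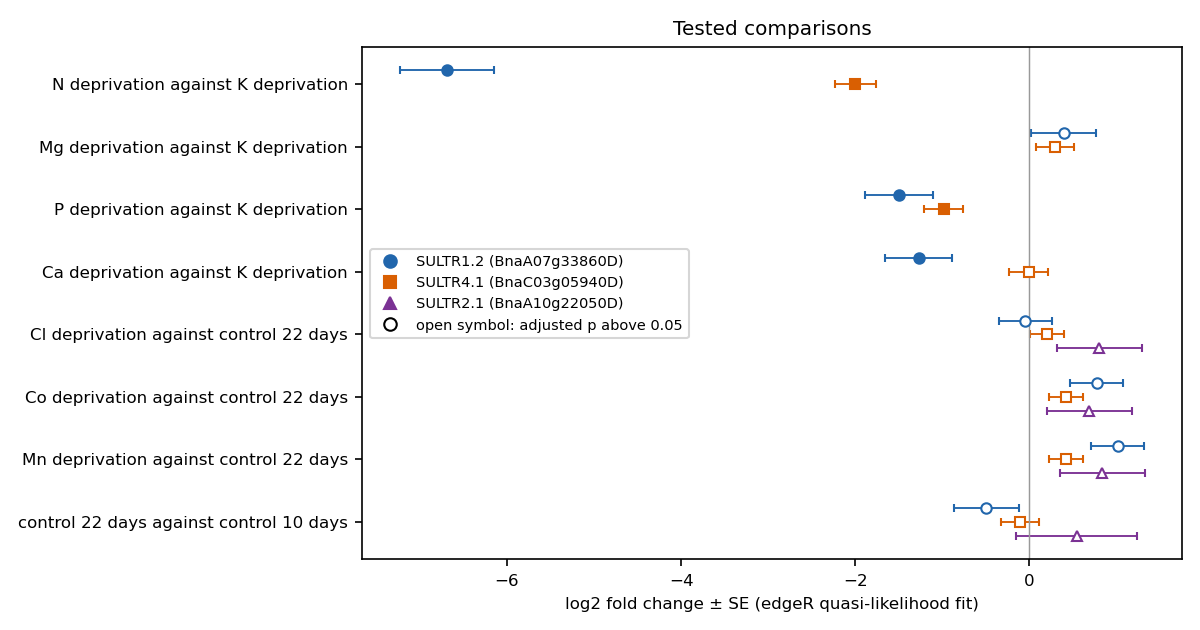
Log2 fold changes (horizontal axis, first-named condition over the second, bars ± SE) of the members in the 8 tested comparisons. Filled symbols passed an edgeR adjusted p of 0.05. SULTR1.2 under N deprivation lies farthest from 0 at -6.69, and no comparison at 22 days passed. SULTR2.1 (BnaA10g22050D) is drawn only for the comparisons that involve 22-day libraries, since its counts under K deprivation were at or under the floor, and BnaC09g46440D is not drawn for low counts.

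The 22-day libraries were not used to choose the members. In them the quasi-likelihood test of edgeR called 0% of 54251 genes for Cl deprivation, 0% for Co deprivation and 0% for Mn deprivation, so none of the members was called either. At an unadjusted p of at most 0.05 it gave 2225, 5588 and 6326 genes for Cl, Co and Mn deprivation. Where no gene differed, a share of 0.05 of those tested would pass by chance, which exceeds the number for Cl. DESeq2 called 34, 52 and 182 genes for Cl, Co and Mn deprivation.

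SULTR1.2 was at 75.5, 72.3 and 42.0 CPM under Mn deprivation, against 31.7, 28.9 and 34.5 CPM in the 22-day control. It was at 68.2, 42.9 and 52.7 CPM under Co deprivation, and all libraries of both deprivations were above all controls. The share of all genes separated in this way was not counted, and neither difference was called. The log2 fold changes were 1.01 (SE 0.31, edgeR adjusted p = 0.368) for Mn and 0.77 (SE 0.31, adjusted p = 0.473) for Co. With control replicates 1 and 2 summed as 1, they were 0.99 (adjusted p = 0.671) for Mn and 0.74 (adjusted p = 0.737) for Co. Cl deprivation gave 47.0, 29.0 and 18.7 CPM, on both sides of the control (log2 fold change -0.05, SE 0.31, adjusted p = 1), and -0.07 with those replicates summed.

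SULTR4.1 showed smaller differences. Co deprivation gave 68.4, 54.4 and 59.1 CPM, against 52.2, 46.1 and 36.8 CPM in the 22-day control, without overlap (log2 fold change 0.42, SE 0.19, edgeR adjusted p = 0.484). Mn deprivation gave 53.3, 74.2 and 50.9 CPM (log2 fold change 0.42, SE 0.19, adjusted p = 0.427) and Cl deprivation 59.5, 58.2 and 41.7 CPM (0.21, SE 0.19, adjusted p = 1), both overlapping the control. With control replicates 1 and 2 summed as 1, the log2 fold changes were 0.48 for Co, 0.49 for Mn and 0.28 for Cl, none of them called.

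Both SULTR2.1 copies stayed at low counts at 22 days. BnaA10g22050D had 17, 9 and 8 counts under Cl deprivation, 9, 7 and 16 under Co deprivation and 6, 18 and 9 under Mn deprivation, against 4, 5 and 8 in the control. The log2 fold changes were 0.81 (SE 0.49, edgeR adjusted p = 1) for Cl, 0.69 (SE 0.49, adjusted p = 0.580) for Co and 0.84 (SE 0.49, adjusted p = 0.505) for Mn, with overlapping groups in each. With control replicates 1 and 2 summed they were 0.73, 0.60 and 0.76 for Cl, Co and Mn, none of them called. BnaC09g46440D did not pass the filter on low counts at 22 days, so only 3 of the 4 members were tested. It had 4, 5 and 12 counts under Cl deprivation, 2, 3 and 7 under Co deprivation and 4, 5 and 3 under Mn deprivation, against 1, 1 and 2 in the control. The ratio of summed counts was 4.67 for Cl deprivation (95% interval 1.58 to 18.7), 2.67 for Co (0.808 to 11.3) and 2.81 for Mn (0.852 to 11.97), intervals that cover counting error only.

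The 22-day control was set against the 10-day control, a comparison in which time, plant age and harvest cannot be told apart. SULTR1.2 was at 31.7 ± 2.77 CPM in the 22-day control and 45.1 ± 17.8 CPM in the 10-day control (log2 fold change -0.50, SE 0.37, edgeR adjusted p = 0.663). SULTR4.1 was at 45.0 ± 7.79 CPM at 22 days and 48.8 ± 11.2 CPM at 10 days (log2 fold change -0.11, SE 0.21, adjusted p = 0.903), and BnaA10g22050D at 0.419 ± 0.171 CPM at 22 days and 0.290 ± 0.313 CPM at 10 days (0.54, SE 0.69, adjusted p = 0.831). None of the 4 members was called, where 0.647% of 57501 genes were called. With replicates 1 and 2 of the 22-day control summed, the log2 fold changes were -0.46, -0.17 and 0.62 for SULTR1.2, SULTR4.1 and BnaA10g22050D, again not called.

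SULTR1.2 has a second copy in the same table of the study, BnaC06g38480D of chromosome C06. This copy was at 4.43 ± 1.35 CPM under N deprivation and 202 ± 55.6 CPM under K deprivation (log2 fold change -5.53, SE 0.38, edgeR adjusted p = 7.37e-08). It was also lower under P deprivation (-1.65, SE 0.31, adjusted p = 0.000781) and Ca deprivation (-1.36, SE 0.31, adjusted p = 0.00303) than under K deprivation, as was BnaA07g33860D. Under S deprivation it was at 327 ± 43.0 CPM, against 172 ± 67.7 CPM in the 10-day control (log2 fold change 0.89, SE 0.30).

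Of the counts of both SULTR1.2 genes, BnaA07g33860D took 25.4% under S deprivation (95% Wilson interval 24.7 to 26.0%), against 20.7% (19.9 to 21.6%) in the 10-day control. Under N deprivation the share was 1.79%, 19.0% and 5.66% in the 3 libraries and 11.2% of 214 counts in all (7.65 to 16.1%). The other 30 libraries lay between 16.2 and 31.3%, so N replicate 2 was within their range and N replicates 1 and 3 were below it. In the 22-day control the share was 17.1, 16.2 and 29.6%, the third library being apart from the near-alike replicates 1 and 2. These intervals cover counting error only, and reads shared by near-identical copies were dropped if they mapped to several places.

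**Figure D3:**
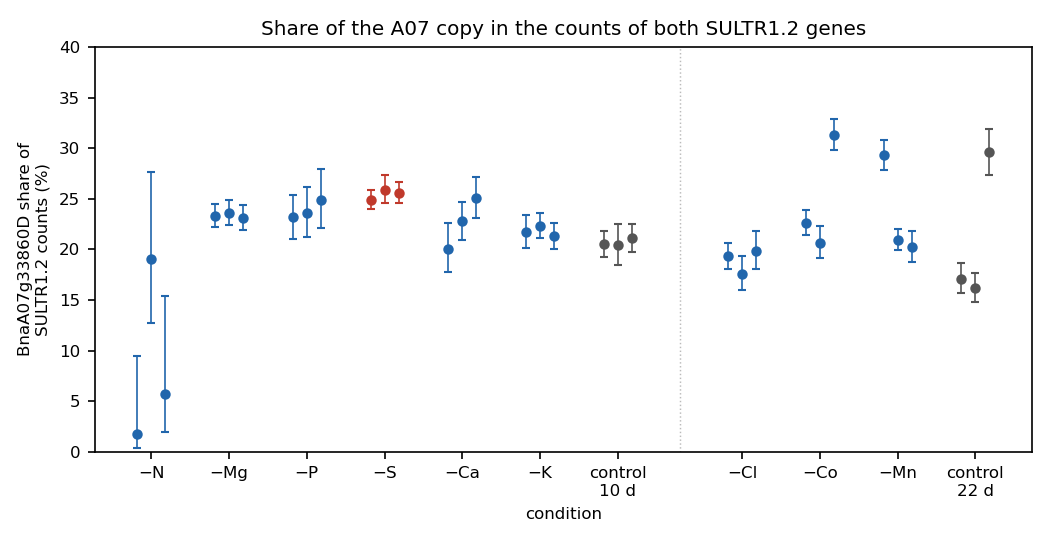
Share of BnaA07g33860D in the counts of both SULTR1.2 genes (vertical axis, percent) in each library, with 95% Wilson intervals for counting error. N replicates 1 and 3 lie lowest at 1.79 and 5.66%, and single libraries of Co deprivation, Mn deprivation and the 22-day control lie near 30%, with 31.3% the highest.

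For SULTR2.1, BnaA10g22050D took 68.9% of the 273 counts of both copies under S deprivation (63.1 to 74.1%), against 68.8% of 16 counts in the 10-day control (44.4 to 85.8%). Under N deprivation the share was 33.3% of 24 counts (17.97 to 53.3%). In the 22-day conditions it was 61.8% under Cl deprivation, 72.7% under Co deprivation and 73.3% under Mn deprivation, against 81.0% of 21 counts in the control (60.0 to 92.3%). Summed per condition, the A10 copy thus had the larger share of the counts under S deprivation and in the 22-day conditions, but in Cl replicate 3 it had 8 of 20 counts. The intervals of the 22-day conditions overlap.

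The libraries keep the strand of the RNA, and SULTR1.2 had an unusual amount of reads on the opposite strand. Over all libraries 9.17% of the counts of BnaA07g33860D on both strands were on the opposite strand, and 3.92% of the 56882 genes with at least 200 counts were as high. The median gene had 0.163%, SULTR4.1 0.0614% and SULTR2.1 (BnaA10g22050D) 0.867%. The other SULTR1.2 copy, BnaC06g38480D, had 6.61%. In the N-deprived libraries the opposite strand held 31.0 to 75% of the BnaA07g33860D counts, against 1.71 to 19.1% (median 7.95%) in the other 30 libraries. For BnaC06g38480D the values were 24.8 to 47.9% under N deprivation and 1.60 to 13.7% elsewhere.

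The opposite strand of BnaA07g33860D had 3, 9 and 9 counts under N deprivation, against 1, 20 and 3 counts on the expected strand. Its level there thus fell less under N deprivation than that of the expected strand, and with the counts of both strands summed the log2 fold change of N against K deprivation was -5.84. Both SULTR1.2 genes have a gene named SULTR2.2 beside them in the order of identifiers, BnaA07g33850D and BnaC06g38470D. Their distance and strands were not analysed here, and any part of a neighbouring transcript in these counts was not tested. BnaA07g33850D also fell under N deprivation, to 1.197 ± 0.128 CPM, against 7.94 ± 0.711 CPM under K deprivation (log2 fold change -2.75, SE 0.26, edgeR adjusted p = 1.85e-06). BnaC06g38470D was at 3.99 ± 0.717 CPM under N deprivation and 19.3 ± 3.10 CPM under K deprivation (-2.30, SE 0.21, adjusted p = 1.62e-06).

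**Figure D4:**
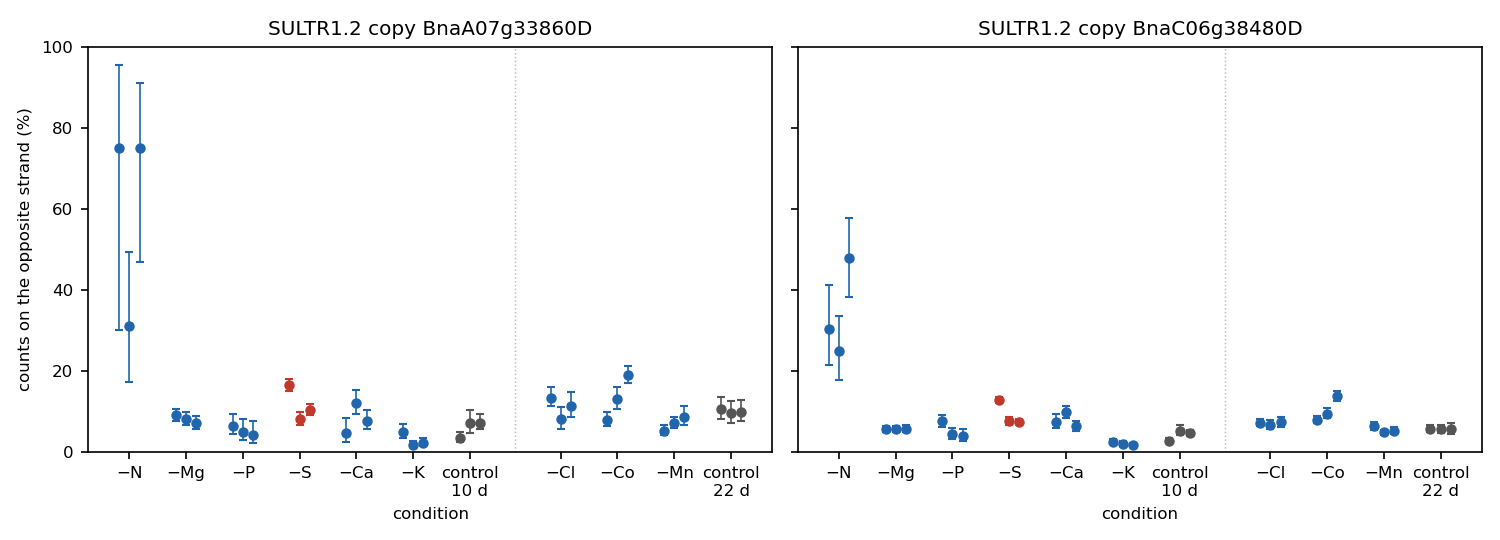
Percent of the counts on the opposite strand (vertical axis) for each SULTR1.2 copy in each library, with 95% Wilson intervals for counting error. Under N deprivation the shares were 31.0 to 75% for BnaA07g33860D and 24.8 to 47.9% for BnaC06g38480D, above the other 30 libraries in both panels.

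The study lists 38 genes as S transporters, the 4 members included. It drew the list from genes changed in the 10-day libraries, so that the list is not independent evidence there. Against K deprivation, 3 of the 38 genes were higher and 16 lower under N deprivation, with a median log2 fold change of -0.67, against 0.02 over all genes. Over all 56667 genes, 6103 were higher and 7583 lower. The 19 genes called are 50% of the list, beside 24.2% of all genes. P deprivation had 4 higher and 17 lower (median -0.82, 55.3% called, beside 29.6% of all genes), Mg deprivation 1 higher and 12 lower (median -0.54, 34.2% called, beside 13.5%) and Ca deprivation 7 higher and 10 lower (median -0.19, 44.7% called, beside 26.8%). The medians over all genes were between -0.02 and 0.02.

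The gene of this list with the largest called difference under N deprivation was SULTR1.2 itself. Under P deprivation it was BnaA02g10510D (SULTR1.1), which in Arabidopsis is a second high-affinity uptake transporter of roots, at -3.69 (SE 0.49, edgeR adjusted p = 4.02e-05). Under Mg deprivation it was BnaC02g00440D at -4.35 (SE 0.53, adjusted p = 9.34e-05), and under Ca deprivation BnaC03g09670D at -2.90 (SE 0.47, adjusted p = 0.000198). At 22 days 33 of the 38 genes were tested and the edgeR test called none. None of the 38 was called between the 22-day and the 10-day control, where the list's median was 0.24.

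The genes whose levels were most like those of each member were looked up by Pearson's r of log2 CPM over the 33 libraries, as a description. The libraries share conditions and harvests, so that r is led by the conditions with extreme levels. For SULTR1.2 the most alike was its other copy BnaC06g38480D, with r = 0.977, and r = 0.922 over the 27 libraries left without S and N deprivation. BnaC07g13050D (0.939) and BnaA09g25300D (0.916, annotated as a zinc/iron permease) came next, and their r was 0.48 and 0.66 over those 27 libraries. For SULTR4.1 they were BnaC03g47870D (0.936), BnaA03g04410D (0.921, listed as a sulfate transporter) and BnaC06g38480D (0.901), with 0.88, 0.98 and 0.70 over the 27 libraries.

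For the sparse SULTR2.1 copies the likeness rested more on S deprivation. For BnaA10g22050D the most alike were BnaC04g33970D (r = 0.818), BnaA04g11790D (0.808) and BnaC03g75010D (0.804), which fell to between 0.597 and 0.689 without the S-deprived libraries. For BnaC09g46440D they were BnaA07g19940D (0.721), BnaA03g34510D (0.709, annotated as S-adenosylmethionine synthetase) and BnaAnng00920D (0.708), with 0.496 to 0.670 without S deprivation. Among the members, SULTR1.2 and SULTR4.1 had r = 0.62 over the 27 libraries without S and N deprivation, and the SULTR2.1 copies r = 0.80. The libraries share conditions in both, and the value of the SULTR2.1 copies also rests on low counts.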

How the data were processed

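Root libraries were stranded mRNA libraries sequenced in paired-end mode. Per the study's methods, the authors trimmed the reads, aligned them with STAR 2.5.2a to the Genoscope annotation V5, removed pairs with several hits and deposited unnormalized counts of read pairs per gene for each strand setting. The reverse-strand counts were used here. Rows of unmapped, multimapping, featureless and ambiguous pairs (63.9 to 76.0% of pairs fell on genes) stayed out of library sizes.

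Counts were tested with the quasi-likelihood test of edgeR 4.0.16 (R 4.3.3), with filterByExpr by condition, TMM and 1 coefficient per condition, over the 21 libraries at 10 days, the 12 at 22 days, or all 33 for the 2 controls. SE is the log2 fold change divided by the root of F. The procedure was tested on simulated data. The study used a likelihood ratio test, which was run as an alternative, as was DESeq2 1.42.0. Other alternatives were normalizations, filters, strand settings, the replicate block, fits on fewer or more libraries and leaving out single libraries. Counts of both SULTR1.2 copies, opposite-strand shares and the summing of 2 control libraries were added after the data were examined.

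The members, the gene lists and the K-deprived reference were chosen with earlier results of these data known. Besides the members, the text names for each the 3 most alike genes (Pearson's r of log2 CPM, prior count 2, average log2 CPM of at least 1), the genes the study names SULTR1.2 or SULTR2.2, and in each comparison the called S transporter with the largest fold change. Nothing says whether replicates came from separate cultures beyond the study's statement that they were independent. No gene sequences or coordinates were used here.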

Additional observations from a re-analysis of the deposited data

Results flagged for a closer look

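The levels on the opposite strand of SULTR1.2 (BnaA07g33860D) lie outside the main measurement, which used the expected strand, and in 4 deprivations every library was above every library of its control. Under S deprivation they averaged 15.0 ± 7.01 CPM (8.48 to 22.4), and under Mg deprivation 6.53 ± 2.31 CPM (4.74 to 9.14), against 2.62 ± 1.08 CPM (1.91 to 3.86) in the 10-day control. Under Co deprivation they averaged 8.23 ± 3.62 CPM (5.87 to 12.4) and under Mn deprivation 4.58 ± 0.875 CPM (3.98 to 5.58), against 3.49 ± 0.406 CPM (3.02 to 3.75) in the 22-day control (SD, n = 3 each). The differences were not tested, and replicates 1 and 2 of the 22-day control were kept as 2 libraries here. All 4 members were looked at under all 9 deprivations. Only separations with more than 3 opposite-strand counts in every deprived library are listed. The share of all genes separated in this way was not counted. S, Co and Mn deprivation also had expected-strand levels of BnaA07g33860D above every library of their control.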

How the results depend on the processing

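Of the 348 alternative values of the 22 tested member results, 330 kept the direction and the side of the threshold, and 16 results did so throughout. BnaC09g46440D under N against K deprivation (2.72) became called with the likelihood ratio test (2.76) and the fit of all 33 libraries (2.72), and ranged from 1.95 to 5.45 when single libraries were left out. It did not pass the filter in a fit of N and K deprivation alone. SULTR4.1 under Ca against K deprivation (-0.01) changed sign with upper-quartile normalization (0.044) and no filter (0.014), and ranged from -0.079 to 0.039 with libraries left out. Leaving out single libraries gave -1.47 to -1.09 for SULTR1.2 under Ca against K deprivation, -0.44 to 0.23 for SULTR1.2 under Cl deprivation, and between the controls -0.069 to 1.77 for BnaA10g22050D and -0.26 to 0.064 for SULTR4.1. The cause was not tested. Genes called under N against K deprivation numbered 13686 and 8109 without N replicate 3. For Mg they numbered 7643, against 2447 in a fit of those conditions alone and 3470, 4371 and 4307 without Mg replicate 1, K replicate 1 and Mg replicate 3. Between the controls 372 genes were called, against 886 with the likelihood ratio test, 845 with DESeq2, 0 in a fit of the controls alone, 72 with replicates 1 and 2 of the 22-day control summed and 35 to 1469 with single libraries left out. At 22 days edgeR's quasi-likelihood test called 0 genes for Cl, Co and Mn deprivation. The likelihood ratio test called 33, 77 and 182, and fits of the conditions alone, no filter or all 33 libraries between 0 and 39. At 10 days replicate numbers did not pair the libraries (same-number correlations from -0.41 to 0.45, mean 0.004, against a mean of -0.002 for different numbers). There 8 of the 21 libraries were most like their own number. At 22 days same-number libraries were somewhat more alike (-0.08 to 0.46, mean 0.12, against a mean of -0.06 for different numbers). There 10 of the 12 libraries were most like their own number, so a partial pairing at 22 days is possible. The replicate block changed no member's call (SULTR1.2 under N against K deprivation -6.68) and moved the counts of calls little (13238 for N, 2 for Mn). Depth limits the SULTR2.1 copies most, as both were at or under 3 counts in many libraries.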
